A study of Rattus norvegicus with 24 samples.

Results

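Axon guidance ligands and receptors were followed in rat spinal cord, in its dorsal horn where sensory fibres end, as 44 genes of the 10411 that the array measured under a single gene symbol. The genes were chosen by symbol: those that start with Sema, Plxn, Epha, Ephb, Efna, Efnb, Slit or Robo, those that start with Ntn, Nrp or Unc5 followed by a digit or subtype letter, and Dcc. Where a gene had several probe sets, as 12 of the 44 did, the one with the highest mean over all arrays stood for it. On the ligand side the set held 12 semaphorins, 3 ephrins, 3 Slits and 2 netrins, and on the receptor side 9 plexins and neuropilins, 8 Eph receptors, 2 Robo receptors and 3 netrin receptors. The spelling of the symbols also took in 2 genes that belong to none of these families, Unc50 and Unc5cl, which were kept in the counts.

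Guidance cues are proteins, secreted or held on cell surfaces, that attract or repel the growing tip of an axon, and many stay in use in the mature nervous system at synapses, in glia and in blood vessels. Secreted class 3 semaphorins bind neuropilins, which pair with A-type plexins to pass the signal on, while the membrane-bound semaphorins mostly bind plexins directly; netrin 1 attracts axons through Dcc and repels them through Unc5 receptors, Slits repel through Robo receptors, and ephrins and Eph receptors act between touching cells. In the developing spinal cord netrin 1 and the Slits steer commissural axons at the ventral midline, and semaphorins take part in sorting the sensory fibres that enter the dorsal horn.

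RNA came from the dorsal horn on the operated side of Sprague-Dawley rats, and each of the 4 groups held 6 arrays that the study describes as biologically independent. In spared nerve injury (SNI) 2 branches of the sciatic nerve, the tibial and the common peroneal, are tied and cut while the sural branch is spared. The groups were adult SNI, adult sham, neonate SNI and neonate sham: adults were 8 to 12 weeks old, neonates are labelled postnatal day 10, and SNI tissue was taken 7 days after injury. Sham operation exposed the nerve without tying it. Neither the meaning of postnatal day 10, as the day of surgery or of tissue collection, nor the meaning of the replicate numbers 1 to 6 is given in the labels. The sample titles name 7 days for the SNI groups only, and give no time from operation to collection for the sham groups.

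Values were log2 expression per probe set. The median log2 value of an array lay between 5.57 and 5.67, and any 2 arrays correlated at 0.984 or more. Markers of dorsal horn excitatory neurons were above the detection level of 3.84 log2 on all 24 arrays for 8 of 9 measured genes, with Tlx3 below it throughout, and those of inhibitory neurons for 7 of 9. Of 7 markers of primary sensory neurons, whose cell bodies lie outside the cord, 5 were below that level on every array (Scn10a, Scn11a, Trpv1, P2rx3 and Avil). The other 2 were detected, and the summed level of the 7 varied widely, from 7.19 log2 on a neonate SNI array to 11.85 log2 on an adult SNI array. Sums of the motor neuron markers ran from 7.89 log2 in neonate SNI to 12.04 log2 in adult sham. The motor and sensory neuron lists share Prph, so the ranges of their sums are not separate observations. A gene was tested if its probe set was above the detection level on at least 6 arrays, which 7006 genes were, and a difference was called where limma's Benjamini-Hochberg adjusted p, taken over all 9638 probe sets tested, was under 0.05.

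Detectable guidance genes were mostly semaphorins and plexins. Of the 44 members 25 were tested, 24 of them above the detection level on all 24 arrays and 1, Sema3b, below it on a single array. The tested members were 10 of the 12 semaphorins (Sema3b, Sema3c, Sema4a, Sema4b, Sema4d, Sema4f, Sema5a, Sema6a, Sema6b and Sema6d), Efna5 among the ephrins, Ntn1 among the netrins, 6 of the 9 plexins and neuropilins (Nrp1, Plxna1, Plxna2, Plxna3, Plxnb1 and Plxnb2), 3 of the 8 Eph receptors (Epha4, Epha5 and Epha10), both Robo receptors, Unc5b among the netrin receptors, and Unc50.

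The other 19 members lay between 2.09 and 3.90 log2 over all their arrays, 18 of them never above the detection level, and a level this low gives no measure of a difference. Among them were all 3 Slits, whose receptors Robo1 and Robo2 were detected, and Dcc and Unc5a, which bind netrin 1. The remaining ones were Sema3a, Sema6c, Efna1, Efnb1, Ntng1, Nrp2, Plxnc1, Plxnd1, Epha2, Epha3, Epha7, Epha8, Ephb4 and Unc5cl. A probe set at the dim end of the scale does not show that the gene was silent. Robo1, though counted as detected, was itself dim. Its group means were 4.21 to 4.44 log2, and it showed the identical value of 4.30 log2 on 7 arrays over all 4 groups.

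Injury in adults was followed by a call for 1 of the 25 tested guidance genes, Nrp1, which was higher in adult SNI than in adult sham dorsal horn. Over all genes tested, 1.98% were called higher and 0.0285% lower in this comparison, 2.01% in either direction. Nrp1 encodes neuropilin 1, the receptor for secreted semaphorins such as Sema3a, and a co-receptor for vascular endothelial growth factor on endothelial cells. In adult SNI its log2 expression on replicates 1 to 6 was 8.10, 8.80, 8.69, 8.77, 9.02 and 9.07. In adult sham it was 6.99, 7.47, 7.23, 7.79, 7.64 and 8.13. The groups overlapped by 1 array each: the lowest SNI array was just under the highest sham array, and the other 5 SNI arrays lay above all sham arrays.

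Nrp1 averaged 8.74 ± 0.344 log2 in adult SNI and 7.54 ± 0.405 log2 in adult sham (SD, n = 6 each), a difference of 1.20 (SE 0.29, 95% interval 0.60 to 1.80) or 2.30-fold, with an adjusted p of 0.0233. Its second probe set ran from 4.88 through a median of 5.84 to 6.65 log2 in adult SNI and from 4.45 through 4.56 to 5.24 log2 in adult sham. It gave a difference of 1.11 (SE 0.24, adjusted p = 0.00955). The call on the first probe set depended on the fit: leaving out adult sham replicate 1, 2 or 3 or adult SNI replicate 5 or 6, each alone, gave differences of 1.09 to 1.19 and adjusted p of 0.0528 to 0.0733, and testing all probe sets without the detection filter gave 0.063. With the replicate number as a block within each age the SE was 0.13 and the adjusted p 4.29e-05, the lowest over the alternatives, and 0.0733 was the highest. In RNA of whole dorsal horn, a change in the number of cells of a type and a change in the RNA per cell cannot be told apart.

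Same-numbered arrays showed the adult difference one by one. Nrp1 was higher in SNI in 6 of 6 adult pairs, by 1.12, 1.33, 1.46, 0.98, 1.38 and 0.94 log2. Neonate SNI arrays exceeded their same-numbered sham arrays in 5 of 6 pairs, by 0.40, 0.41, 0.49, 0.16 and 0.61 log2, and pair 2 gave a difference of -0.65.

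**Figure D1:**
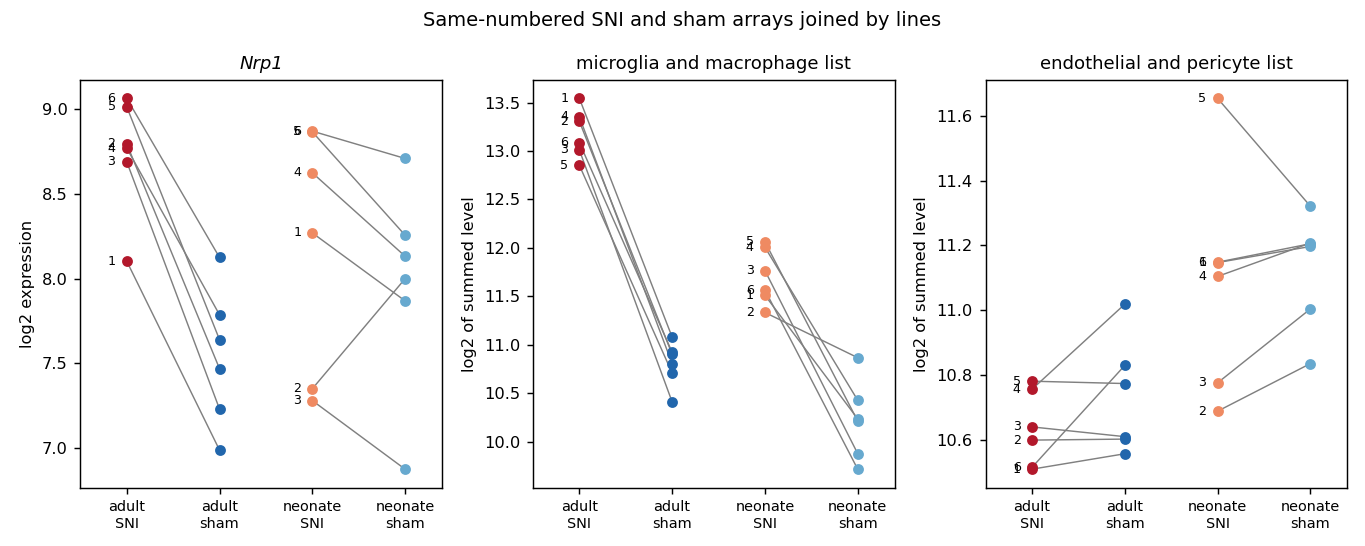
Log2 expression of Nrp1 (left) and the log2 summed level of a microglia and macrophage marker list (middle) and an endothelial and pericyte list (right) on each array, with lines joining SNI and sham arrays of the same replicate number and numbers beside the SNI points. All 6 adult lines for Nrp1 fall toward sham, while the adult endothelial sums of the 2 groups overlap, at 10.51 to 10.78 in SNI and 10.56 to 11.02 in sham.

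Nrp1 stood beside other changes in the same RNA. The summed level of 10 microglia and macrophage markers was 12.85 to 13.54 log2 in adult SNI and 10.41 to 11.08 log2 in adult sham, and 8 of the 8 markers tested were called higher, among them Aif1 by 2.14 and Csf1r by 1.68 log2. Itgam was below the detection level on every array. In neonate SNI the sum was 11.33 to 12.06 log2 and in neonate sham 9.72 to 10.87 log2, with 7 of 8 markers called higher. Of 5 endothelial and pericyte markers tested (Flt1, Kdr, Cldn5, Pdgfrb and Rgs5) 0 were called in either age after injury. Over all genes tested, 2.01% were called in adults and 0.357% in neonates. The defining marker Pecam1 was below the detection level on every array. Within adult SNI, array 1 had the highest microglia and macrophage sum, 13.54 log2, and the lowest Nrp1, 8.10 log2. It also had the lowest endothelial and pericyte sum of its group, 10.51 log2. The part of microglia and macrophages, or of endothelial cells, in the Nrp1 difference was not tested.

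The plexins that pair with neuropilin 1 gave no call after adult injury. Plxna1, Plxna2 and Plxna3, its signalling partners, differed by -0.07, -0.03 and 0.00 log2. Plxnb2, a receptor for class 4 semaphorins, ran from 6.93 through 7.87 to 8.14 log2 in adult SNI and from 6.80 through 7.31 to 7.67 log2 in adult sham, a difference of 0.46 (SE 0.20, unadjusted p = 0.031, adjusted p = 0.519). Plxnb1, the receptor for Sema4d, differed by -0.20 (unadjusted p = 0.035, adjusted p = 0.548). The transmembrane ligand Sema6b differed by -0.23 (unadjusted p = 0.039, adjusted p = 0.566). With Nrp1 these 3 were the 4 members at an unadjusted limma p under 0.05, and all 4 pairs of groups overlapped.

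Among the ligands, the differences of the 10 tested semaphorins after adult injury lay between -0.23 and 0.13 log2, with a median of -0.05 and 3 above 0. Efna5, an ephrin held on the membrane, differed by 0.05 and Ntn1 by -0.03. On the receptor side the 3 Eph receptors lay between -0.01 and 0.06, Robo1 and Robo2 at -0.04 and -0.22, and Unc5b at 0.02 log2. The median over the 25 members was -0.02, against -0.03 over all 7006 genes. For most members the 95% interval bounded the change closely: for Sema4f it was -0.12 to 0.27 and for Epha4 -0.22 to 0.21 log2. For Unc5b (-0.61 to 0.65) and Sema3b (-1.13 to 0.69) it did not.

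**Figure D2:**
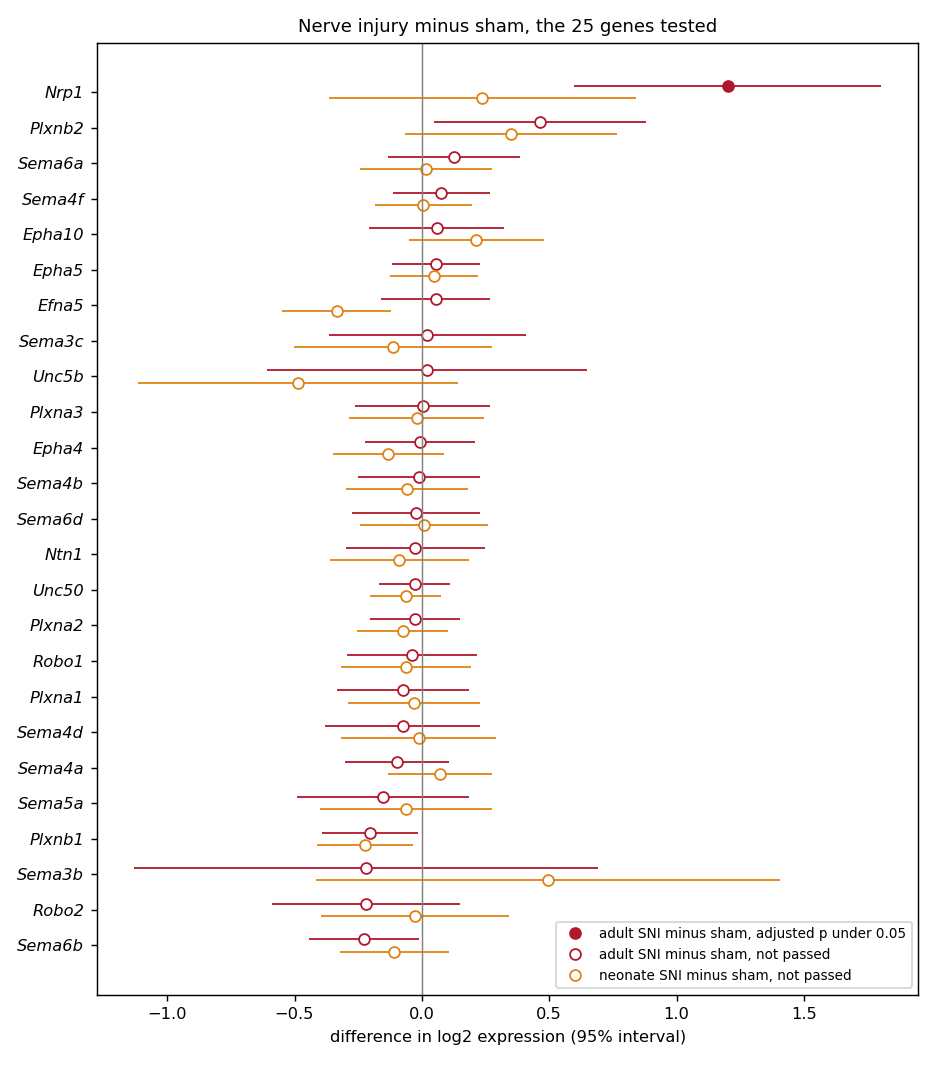
Difference in log2 expression (horizontal axis, with 95% interval) between SNI and sham for each of the 25 tested genes (rows), in adults and in neonates. Filled points passed an adjusted p of 0.05: only Nrp1 in adults did, at 1.20, and its neonatal interval, -0.37 to 0.84, includes 0.

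Injury in neonates gave 0 calls among the 25 members by limma, in a comparison that called 0.357% of all genes tested, each of them higher, and 2 members had an unadjusted p under 0.05. These were Efna5, at -0.33 (SE 0.10, adjusted p = 0.548), and Plxnb1, at -0.22 (SE 0.09, adjusted p = 1.00). Efna5, which repels axons that carry Epha receptors, ran from 7.96 through 8.05 to 8.24 log2 in neonate SNI and from 8.14 through 8.45 to 8.66 log2 in neonate sham, so the groups overlapped slightly. Plxnb1 had nearly the same difference as in adults. The member median was -0.03, against -0.01 over all genes, and the differences lay between -0.49 (Unc5b) and 0.49 (Sema3b).

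Nrp1 in neonate SNI ran from 7.28 through a median of 8.45 to 8.87 log2, and in neonate sham from 6.88 through 8.07 to 8.71 log2. The groups overlapped over most of their range, and the difference was 0.24 (SE 0.29, adjusted p = 1.00). The neonatal arrays were also more spread than the adult ones, with SDs of 0.728 in SNI and 0.611 in sham. The neonate SNI arrays 2 and 3 had the lowest Nrp1 of their group, 7.35 and 7.28 log2, and also its lowest endothelial and pericyte sums, 10.69 and 10.78 log2 in a group range of 10.69 to 11.65. In neonate sham the 2 minima fell on different arrays, Nrp1 on array 3 at 6.88 log2 and the endothelial and pericyte sum on array 2 at 10.84 log2. The part of endothelial cells in the neonatal spread was not tested.

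Whether injury acted differently at the 2 ages was tested as the adult difference minus the neonatal one. None of the 25 members was called by limma, 2 had an unadjusted p under 0.05, and 0.257% of all genes tested were called. For Nrp1 the difference of differences was 0.96 (SE 0.41, 95% interval 0.11 to 1.82, unadjusted p = 0.028, adjusted p = 1.00). The second Nrp1 probe set gave 0.92 (SE 0.35). With the replicate number as a block within each age, the value of the first had an SE of 0.19 and an adjusted p of 0.0490, and 0.328% of all genes were called in that fit. Nrp1 was the single member called there, so the call depends on whether same-numbered SNI and sham arrays are treated as pairs. Efna5 gave 0.39 (SE 0.15, unadjusted p = 0.014, adjusted p = 1.00). Thus the Nrp1 response passed the test in adults and not in neonates, while the contrast between the ages passed only with the block.

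The 250 bases before the start of the Nrp1 gene are shown because Nrp1 was the one member called after injury; the sequence is RefSeq's, on the GRCr8 rat assembly, chr19:73256307-73256556 on the plus strand, 5′ to 3′, and capitals mark a match to a searched motif.
Nrp1: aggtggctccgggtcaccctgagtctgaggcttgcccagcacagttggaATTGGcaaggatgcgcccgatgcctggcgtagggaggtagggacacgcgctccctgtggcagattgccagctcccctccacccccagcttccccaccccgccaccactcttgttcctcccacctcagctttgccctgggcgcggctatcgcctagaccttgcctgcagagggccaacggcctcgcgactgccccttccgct
Both strands were searched for 4 motifs: TATAAA (the TATA box), GGGCGG (the GC box), CCAAT, and TGANTCA (the AP-1 site). Nrp1 held a single match, to CCAAT read on the minus strand, 201 bases before the start. Matches to CCAAT were present in 34% of 33469 rat promoters of this length, GGGCGG in 30.5%, TATAAA in 12.9% and TGANTCA in 6.34%. Promoters were found for 35 of the 44 members, of which 10 held CCAAT, 20 GGGCGG, 0 TATAAA and 1 TGANTCA. A match to these letters is a description and not a binding site.

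Age gave more calls than injury among the guidance genes, as it did over all genes tested, of which 2.01% were called after adult injury. Between adult and neonate sham dorsal horn, 6 of the 25 members were called lower in adults and 0 higher, where 8.59% of all genes tested were called lower, 7.86% higher and 16.5% in either direction. The 6 were the ligands Sema6a, Sema5a, Sema4f, Efna5 and Ntn1 and the receptor Plxna1. Of the 25 members 5 had all adult arrays below all neonate arrays, as did 4.11% of all genes tested, and these 5 were among the 6 called. The median of the 25 differences was -0.22, against -0.03 over all genes. Of the 25, 19 were below 0, as were 55.9% of all genes tested.

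Sema6a showed the largest difference. It encodes a transmembrane semaphorin that binds plexins A2 and A4 and in mice takes part in axon guidance and in the movement of newborn neurons. In adult sham it ran from 6.19 through a median of 6.37 to 6.90 log2, and in neonate sham from 7.44 through 7.60 to 7.76 log2. Every adult array was below every neonate array. The difference was -1.11 (SE 0.13, adjusted p = 9.59e-07), so the adult level was 0.462 of the neonatal one. Its receptor Plxna2 differed by -0.22 (adjusted p = 0.0906).

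Sema5a, a transmembrane semaphorin with thrombospondin repeats, ran from 7.27 through 7.65 to 8.08 log2 in adult sham and from 8.10 through 8.39 to 8.77 log2 in neonate sham. The groups did not overlap, by a narrow margin, and differed by -0.76 (SE 0.16, adjusted p = 0.00178). Sema4f, another membrane-bound semaphorin, ran from 7.49 through 7.92 to 8.13 log2 in adult sham and from 8.23 through 8.35 to 8.46 log2 in neonate sham. Its difference was -0.45 (SE 0.09, adjusted p = 0.00115), again without overlap. The other 7 tested semaphorins gave no call between the sham groups, and their differences reached from -0.48 (Sema3c, adjusted p = 0.0875) to 0.28 (Sema3b).

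Ntn1, the netrin that attracts commissural axons, ran from 4.26 through 4.76 to 4.96 log2 in adult sham and from 4.96 through 5.26 to 5.65 log2 in neonate sham. The groups met at 4.96, a value that the probe set showed identically on 5 arrays over all 4 groups, and the difference was -0.52 (SE 0.13, adjusted p = 0.00739). Efna5 ran from 7.81 through 7.99 to 8.07 log2 in adult sham and from 8.14 through 8.45 to 8.66 log2 in neonate sham, with no overlap and a difference of -0.45 (SE 0.10, adjusted p = 0.00349). Plxna1, which transmits class 3 semaphorin signals with the neuropilins, ran from 7.46 through 7.93 to 8.05 log2 in adult sham and from 8.17 through 8.22 to 8.41 log2 in neonate sham.

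The Plxna1 groups did not overlap, but the call was the weakest of the 6. Its difference was -0.39 (SE 0.13, adjusted p = 0.0329). Leaving out adult sham replicate 1 or 4, or neonate sham replicate 2 or 5, gave -0.32 to -0.40 with adjusted p of 0.0517 to 0.0959. Without the detection filter its adjusted p was 0.0598.

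The 250 bases before the start of Sema6a, the member with the largest age difference, lie at chr18:42358541-42358790 on the minus strand of GRCr8 (RefSeq, 5′ to 3′).
Sema6a: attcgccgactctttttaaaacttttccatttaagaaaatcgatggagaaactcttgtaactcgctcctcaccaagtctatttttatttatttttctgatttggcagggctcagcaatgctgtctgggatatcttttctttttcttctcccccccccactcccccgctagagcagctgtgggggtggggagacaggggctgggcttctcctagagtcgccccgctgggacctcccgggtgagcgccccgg
None of the 4 motifs was found in them, and 52.0% of the bases were G or C. For the Nrp1 stretch above this share was 66.4%.

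In injured animals the age comparison called 5 of the same genes: Sema6a, Sema5a, Sema4f, Ntn1 and Plxna1. Its differences come from the SNI arrays alone, but its SEs come from the fit to all arrays, and same-numbered SNI and sham arrays deviated together, so the 2 age comparisons are not independent. In all, 6 members were lower and 1 higher in adult SNI than in neonate SNI, where 11.9% of all genes were called lower, 9.66% higher and 21.6% in either direction. The member median was -0.17, against -0.05 over all genes, and 20 of 25 differences were below 0, as were 58.3% of all genes tested. Sema6a differed by -1.00 (SE 0.13, adjusted p = 2.46e-06), Sema5a differed by -0.86 (adjusted p = 0.000462), Ntn1 by -0.46 (adjusted p = 0.0143), Plxna1 by -0.44 (adjusted p = 0.0149) and Sema4f by -0.38 (adjusted p = 0.00402). Of the 25 members 3 (Sema6a, Sema5a and Sema4f) had all adult arrays below all neonate arrays, as did 4.32% of all genes tested.

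**Figure D3:**
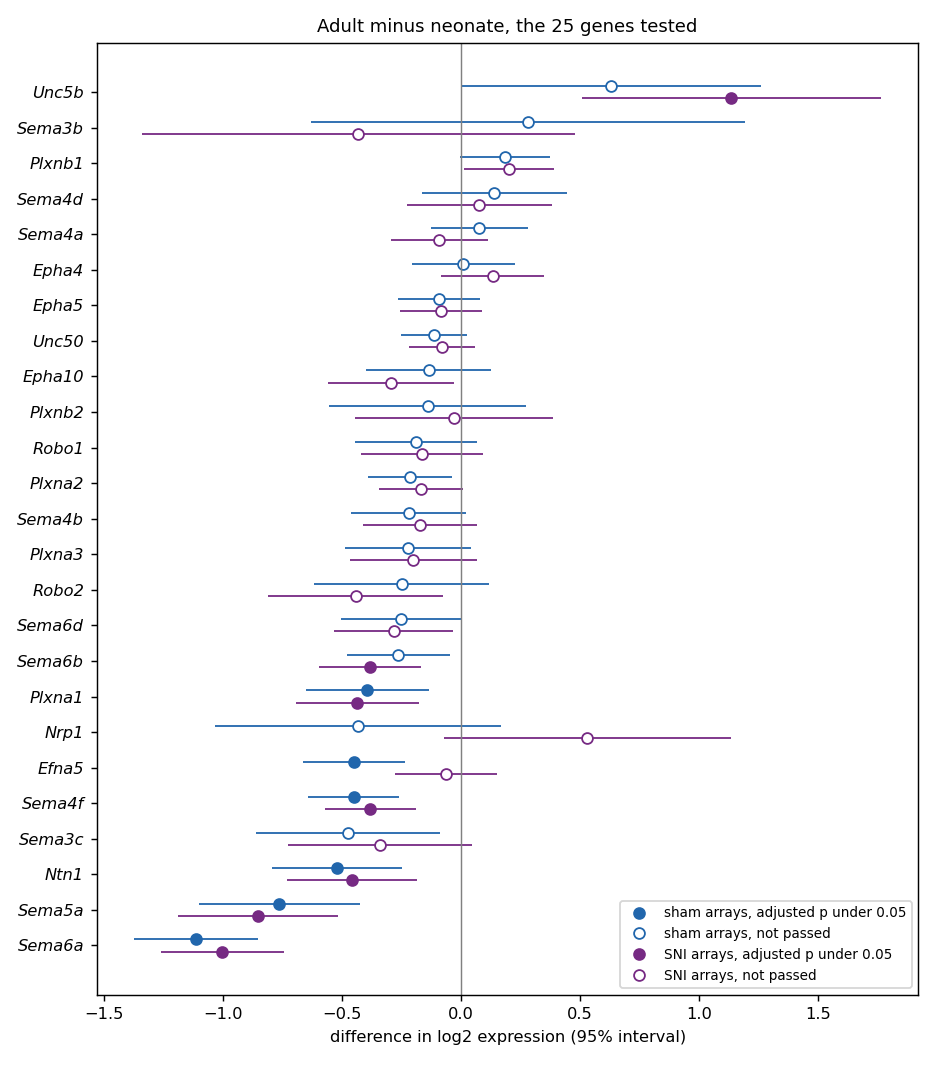
Difference in log2 expression between adult and neonate (horizontal axis, with 95% interval) for each of the 25 tested genes (rows), on sham and on SNI arrays. Filled points passed an adjusted p of 0.05: most lie left of 0, with Sema6a farthest at -1.11 in sham and -1.00 in SNI, and Unc5b alone lies to the right at 1.14 in SNI.

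Membership of the call changed for 3 genes between sham and injured animals, and no test of the change itself passed. Sema6b was called in SNI animals, where it ran from 7.69 through 7.89 to 8.01 log2 in adults and from 7.98 through 8.19 to 8.54 log2 in neonates, with a slight overlap and a difference of -0.38 (SE 0.10, adjusted p = 0.00977). In sham animals its difference was -0.26 (adjusted p = 0.0872), and the contrast of the 2 was -0.12 (SE 0.15, adjusted p = 1.00). Efna5, called in sham, differed by -0.06 in SNI (95% interval -0.28 to 0.15, adjusted p = 0.72). The adult SNI arrays of Efna5, 7.80 to 8.36 log2 around a median of 8.00, and the neonate SNI arrays, 7.96 to 8.24 log2 around 8.05, overlapped widely.

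Unc5b, the netrin receptor that mediates repulsion and also acts in blood vessels, was the only member called higher in adults. In adult SNI it ran from 6.59 through a median of 7.49 to 7.64 log2, and in neonate SNI from 5.30 through 6.41 to 7.09 log2. The groups overlapped, and the difference was 1.14 (SE 0.30, 95% interval 0.51 to 1.76, adjusted p = 0.00912), or 2.20-fold. In sham animals the adult arrays ran from 6.07 through 7.60 to 7.85 log2 and the neonate arrays from 6.12 through 6.68 to 7.13 log2. That difference was 0.63 (SE 0.30, adjusted p = 0.174), and it differed from the one in SNI by 0.51 (SE 0.43, adjusted p = 1.00).

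The level of Unc5b moved with the replicate number as well as with age. Arrays numbered 3 read 6.59 log2 in adult SNI, 6.07 in adult sham, 5.48 in neonate SNI and 6.12 in neonate sham, the lowest of their group except in neonate SNI, where array 5 read 5.30. When the 4 arrays numbered 3 were left out together, a choice made after seeing these values, Unc5b was called higher in adults in both age comparisons, and its difference in SNI was 1.14 (adjusted p = 0.00232). There were then 7 member calls in sham and 9 in SNI animals, with Plxna3 and Robo2 added in SNI. Nrp1 kept its call after adult injury, at 1.15 (adjusted p = 0.0216).

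**Figure D4:**
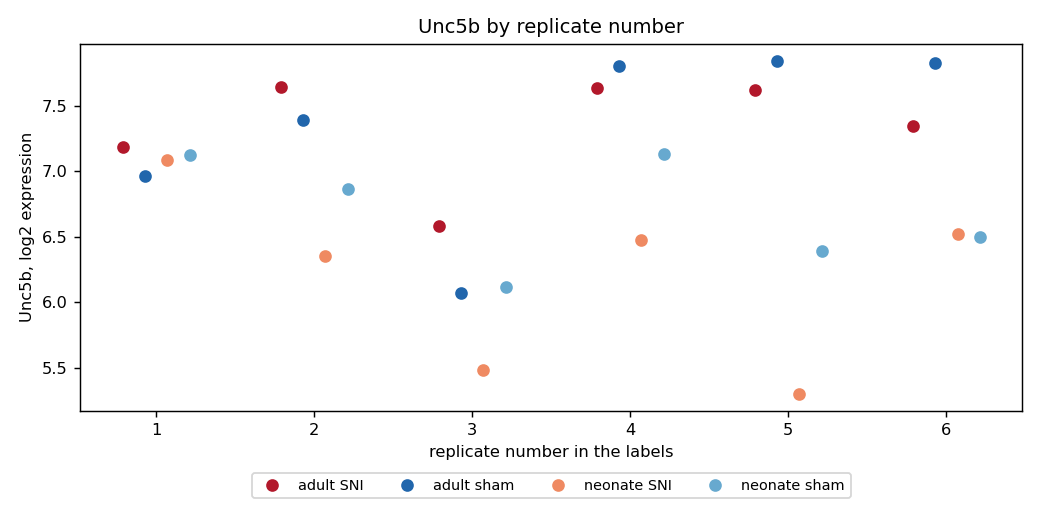
Log2 expression of Unc5b (vertical axis) on each array by the replicate number in the labels (horizontal axis), in 4 colours for the groups. The 4 arrays numbered 3 sit between 5.48 and 6.59, at the low end, and adult arrays of numbers 2, 4, 5 and 6 sit above the neonate ones.

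The Unc5b promoter is shown as that of the member called higher in adult than in neonate SNI animals; RefSeq places the 250 bases at chr20:29307271-29307520 on the minus strand of GRCr8 (5′ to 3′).
Unc5b: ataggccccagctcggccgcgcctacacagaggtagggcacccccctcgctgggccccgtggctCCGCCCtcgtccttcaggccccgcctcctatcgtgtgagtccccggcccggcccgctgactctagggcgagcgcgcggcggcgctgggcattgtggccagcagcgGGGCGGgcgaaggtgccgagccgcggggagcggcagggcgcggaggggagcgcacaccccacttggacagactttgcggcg
It held 2 matches to GGGCGG, at 186 bases before the start on the minus strand, where the letters read CCGCCC, and at 81 bases on the plus strand. The matches did not overlap, and 75.2% of the bases were G or C.

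**Figure D5:**
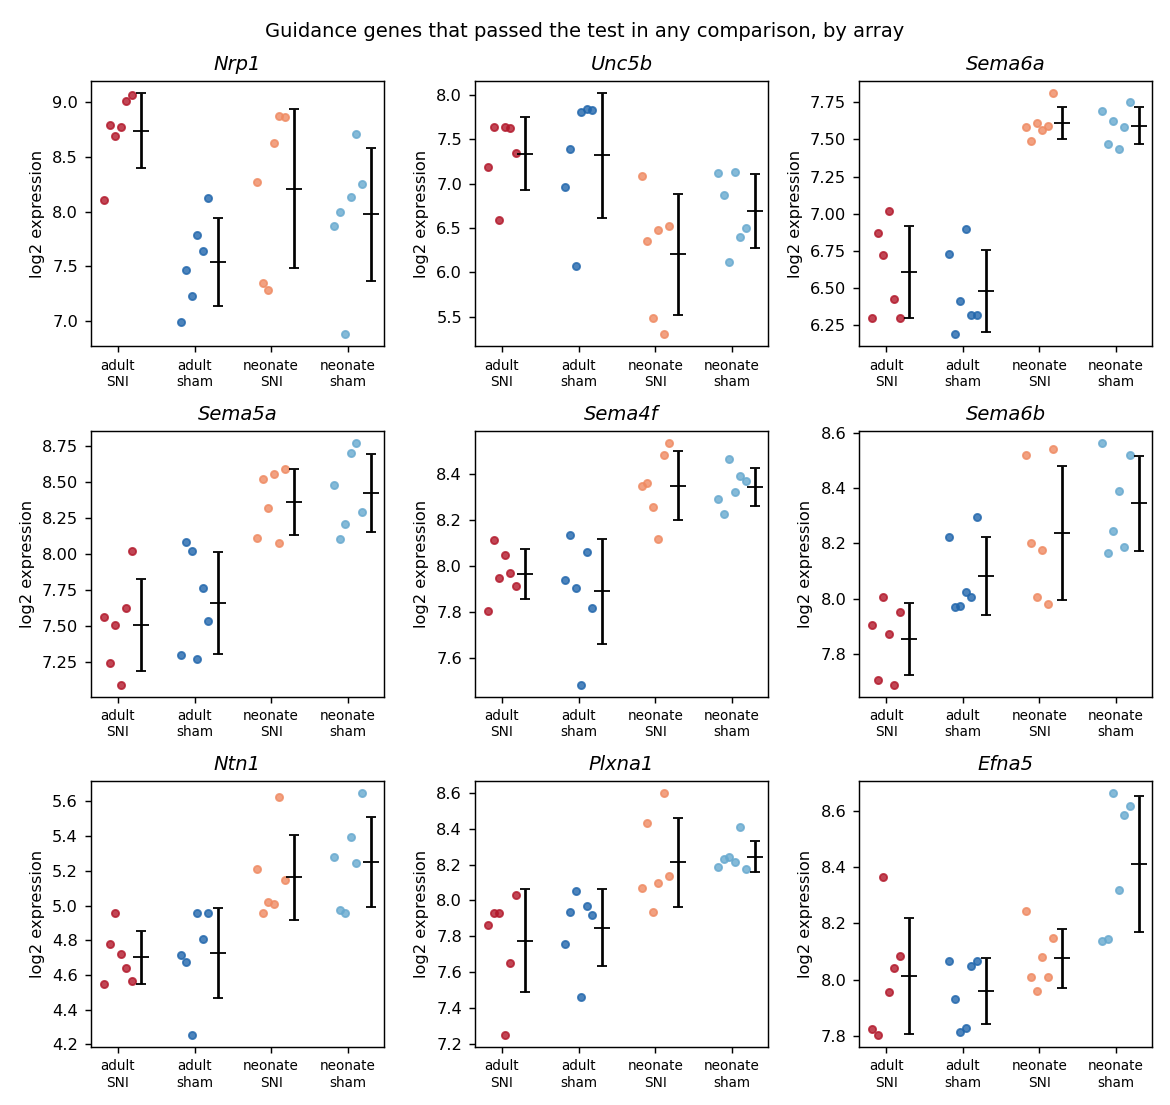
Log2 expression (vertical axes) of the 9 members that passed the test in any comparison, by group, with a point per array and the mean ± SD of 6 arrays beside them. Sema6a, Sema5a and Sema4f show adult arrays wholly below neonate ones in both operations, and Nrp1 shows the adult SNI arrays, 8.10 to 9.07, above all sham arrays but one.

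The members without a call include well-detected receptors. Epha4, which repels corticospinal axons at the midline in mice, averaged 8.77 ± 0.182 log2 in adult SNI, 8.78 ± 0.157 in adult sham, 8.64 ± 0.193 in neonate SNI and 8.77 ± 0.183 in neonate sham (SD, n = 6 each). Its 5 comparisons lay between -0.13 and 0.13 log2, and a second probe set for it gave no call either. The Robo receptors were lower in adults in both age comparisons without passing the test, Robo1 by differences of -0.19 and -0.17 and Robo2 by -0.25 and -0.44 (adjusted p = 0.383 and 0.081). Plxnb1 and Sema4d, a receptor and its ligand, lay above 0 in both, at 0.18 and 0.20 for Plxnb1 and at 0.14 and 0.08 for Sema4d, also without a call.

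Sema3b, a secreted semaphorin, was the member that varied most within a group. It read 3.09 log2 on neonate sham array 3, and the other 5 neonate sham arrays read 5.24 to 6.80 log2. That array also had the lowest sums of the Schwann cell and meningeal fibroblast lists in its group, 13.04 log2 in a range to 14.58 and 10.94 log2 in a range to 12.38. The part of these cells in the Sema3b level was not tested.

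Second probe sets bore on none of the age calls. For Sema6a, Sema5a, Ntn1, Plxna1 and Efna5 the second brightest probe set was at the dim end of the scale and was not tested, so those calls rest on a single probe set each. With the second brightest probe set in place of the first wherever a gene had several, 1 member (Sema4f) was called between the sham groups and 3 (Sema4f, Sema6b and Unc5b) between the SNI groups. These genes have a single probe set each, so their calls repeat those of the first choice.

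Genes around the ligands and receptors were read from 3 further lists, and after injury 0 of their tested genes were called by limma at either age. Over all genes tested the share called was also low, 2.01% in adults and 0.357% in neonates. Of 28 other cues and co-receptors listed, 23 were measured and 16 tested. Between the sham groups 1 was called higher and 6 lower in adults, and between the SNI groups the same 7 genes were called, again 1 higher and 6 lower. Nfasc, the neurofascin adhesion protein of axon initial segments and nodes, differed by -1.07 in sham (SE 0.10, adjusted p = 2.52e-08) and by -1.25 in SNI (adjusted p = 1.10e-09). Its arrays read 10.88 to 11.34 log2 in adult sham and 11.98 to 12.32 log2 in neonate sham, far apart. Cntn2, a contactin that is found beside nodes of Ranvier, was the one called higher, by 1.85 in sham (adjusted p = 1.38e-06) and 1.86 in SNI (adjusted p = 7.83e-07).

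The Cntn2 arrays read 5.34 to 6.31 log2 in adult sham, against 3.68 to 4.40 log2 in neonate sham, near the detection level, and fold changes that start from such dim levels are uncertain. Cntn1, a related contactin, differed by -0.64 in sham (adjusted p = 0.00691). The myelin protein Mag, which inhibits axon growth, differed by -0.51 in sham (adjusted p = 0.0151) and -0.61 in SNI (adjusted p = 0.00331). Ptprs, a receptor for inhibitory proteoglycans, differed by -0.35 in SNI (adjusted p = 0.000624). The median over the 16 was -0.18 in both age comparisons.

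Of 42 listed genes that act inside the growth cone 34 were measured and 33 tested. Between the sham groups 1 was called higher and 7 lower in adults, and between the SNI groups 2 higher and 7 lower, with 7 genes called in both. Dpysl4 and Crmp1 belong to the collapsin response mediator family, which relays semaphorin signals. Dpysl4 ran from 5.23 through 6.50 to 6.75 log2 in adult sham and from 8.19 through 8.32 to 8.52 log2 in neonate sham. Every adult array was below the neonate ones, and the difference was -2.03 (SE 0.20, adjusted p = 8.21e-08), with -2.49 between the SNI groups (adjusted p = 1.65e-09). Crmp1 differed by -0.62 in sham (adjusted p = 0.00167) and -0.82 in SNI.

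Fyn, a kinase used by several guidance receptors, differed by -0.93 in sham and -1.04 in SNI (adjusted p = 7.48e-06 and 1.05e-06), and Chn2, a Rac regulator, by -0.62 and -0.65. Among the genes called higher was Ablim1, an actin-binding protein, at 0.67 in SNI (named after its values were seen). Over the 33 genes the median was -0.07 in sham and -0.05 in SNI, close to those of all genes.

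Of 16 listed genes of axon outgrowth and immature neurons 15 were measured and 14 tested. In sham animals 8 were called lower and 1 higher in adults, and in SNI animals 7 lower and 1 higher, with 8 genes called in both. Dcx, the doublecortin of migrating and immature neurons, ran from 4.40 through 4.81 to 5.29 log2 in adult sham and from 5.86 through 6.15 to 6.28 log2 in neonate sham. The groups did not overlap, and the difference was -1.28 in sham (SE 0.15, adjusted p = 1.41e-06) and -1.06 in SNI (adjusted p = 1.17e-05). Marcks, Marcksl1 and Mllt11 differed by -0.82, -0.61 and -0.55 in sham. The exception, named after its values were seen, was Stmn1, a microtubule regulator, which was called higher at 0.48 in sham and 0.43 in SNI. The median over the 14 was -0.38 in sham and -0.37 in SNI.

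Some cell type markers were also called between the ages, in short lists. Over all genes tested, 8.59% were called lower and 7.86% higher between the sham groups, 16.5% in either direction. Between the sham groups, in adult minus neonate terms, 3 of 7 meningeal fibroblast markers tested, 2 of 6 oligodendrocyte and myelin markers and 2 of 2 oligodendrocyte precursor markers were called lower, with Pdgfra counted in both the fibroblast and the precursor list. Of 8 excitatory neuron markers 3 were called lower and 1 higher. Of 8 astrocyte markers 3 were called higher and 1 lower, of 8 microglia markers 4 higher, and of 7 pan-neuronal markers 0 in either direction. Of 8 inhibitory neuron markers 1 was called higher, of 5 Schwann cell markers 1 lower, and of 5 endothelial and pericyte markers 1 higher and 1 lower. For 4 motor neuron and 2 primary sensory neuron markers tested the count was 0. The summed level of the oligodendrocyte precursor list was 11.56 to 11.87 log2 in adult sham and 12.03 to 12.29 log2 in neonate sham. The meningeal fibroblast sums were 10.79 to 12.06 log2 in adult sham and 10.94 to 12.38 log2 in neonate sham. Pan-neuronal sums overlapped, at 15.30 to 15.79 log2 in adult sham and 15.26 to 15.71 log2 in neonate sham. The part of these cell types in the lower adult levels of the guidance genes was not tested.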

How the data were processed

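Total RNA from the dorsal horn was labelled with biotin and measured on the Affymetrix Rat Expression 230A array, according to the labels. The deposited log2 expression values were made by the authors with GCRMA, which corrects background by probe sequence and normalizes across arrays, per the submitters' processing notes; its version and the genome build are not given in the sources used here. Dim probe sets share a common low value under it, so differences that start there are understated. The number of arrays limits the precision.

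The deposited values were used as they stand. Of 15923 probe sets, 57 controls were removed, and 12783 of the rest had 1 gene symbol in the platform annotation, 312 several and 2771 none. Symbols of 12748 matched the RefSeq rat genes (GRCr8), and 0 were changed. A probe set was tested if at least 6 of the 24 arrays exceeded the detection level, 3.84 log2 (percentile 40 over the whole data set), which kept 9638 probe sets. A linear model with a mean for each of the 4 groups was fitted to all arrays with limma 3.58.1 under R 4.3.3, with 20 residual and 3.81 prior degrees of freedom. P-values were two-sided, with Benjamini-Hochberg adjustment over all probe sets tested and a threshold of 0.05. The procedure was tested on simulated data. Sums over a marker list are log2 of summed linear values. Promoter sequences are from RefSeq, and matplotlib 3.10.9 under Python 3.11.15 made the figures.

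The members, the marker and pathway lists and the alternatives were chosen with earlier results of these data known. Every member could be named, and in each pathway list the 4 called genes with the smallest p of a contrast. Deviations of same-numbered SNI and sham arrays from their group means correlated by 0.10 or more in adults (highest 0.56) and by 0.24 or more in neonates (highest 0.61). The main fit nevertheless used no pairing, and its SEs and p-values are unpaired. The number served as a block within each age only among the alternatives. Across ages such correlations averaged 0.26 in sham arrays (0.014 to 0.43) and 0.31 in SNI arrays (0.035 to 0.64), against -0.05 and -0.06 for arrays of different number. Because deviations were taken from group means, the different-number averages largely follow from the same-number ones and are no separate comparison. No pairing across ages was assumed in the main fit either, although same-numbered arrays deviated together across ages on average. A block by number over all arrays was among the alternatives. The alternatives covered the filter, a floor, 2 normalizations, the arrays in the fit, the variance model, the probe set, the replicate block and leaving out each array. A result of the growth cone list is not reported here.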

Additional observations from a re-analysis of the deposited data

Results flagged for a closer look

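Among 100 groups of 6 arrays (the 25 tested members in 4 groups), 10 had an array set far apart from the others by Dixon's ratio at its 95% critical value, and chance gives about 1 in 20. On the high side these were Epha4 on adult sham array 6 (9.10 log2), Robo2 on the same array (5.44 log2), Sema3c on adult sham array 5 (7.18 log2), Sema4b on adult SNI array 1 (6.98 log2) and on neonate SNI array 2 (7.67 log2), Sema6a on neonate SNI array 6 (7.81 log2) and Plxna1 on neonate sham array 5 (8.41 log2). On the low side they were Epha5 on adult SNI array 4 (5.43 log2) and on neonate sham array 1 (5.39 log2), and Plxnb1 on adult SNI array 6 (8.69 log2). Of the genes called in a comparison, Plxna1 and Sema6a are among them. The Plxna1 call between the sham groups was lost without that neonate sham array 5 (difference -0.36, adjusted p = 0.0785), and the Sema6a calls were kept.

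The injury effect on Nrp1 differed between adults and neonates by 0.964 log2 in the fit with the replicate number as a block within each age (limma, adjusted p = 0.0490), and all 6 adult pairs were higher in SNI, against 5 of 6 neonatal pairs. Without the block the same difference had an adjusted p of 1.00.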

How the results depend on the processing

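The 14 member differences that passed the test were followed through 466 alternative values, of which 453 kept their call and direction, 13 lost the call and 0 reversed. For each difference 24 of the values left out a single array, and arrays outside the comparison cannot move the difference itself. For Sema4f, Sema6b and Unc5b the value for the second brightest probe set repeats the first, so the 453 includes values that could hardly change. The losses were Nrp1 after adult injury (without the filter and without 5 single arrays), Plxna1 between the sham groups (without the filter, with quantile normalization at an adjusted p of 0.0502, and without 4 single arrays) and Plxna1 between the SNI groups (with only those groups in the fit, adjusted p = 0.0547). Without the filter 15866 probe sets were tested, and the count of members called after adult injury was 0. The cause of that loss was not tested. With the second brightest probe set wherever a gene had several, 20 members were tested. The 1 call between the sham groups and the 3 between the SNI groups were of genes with a single probe set, so no second probe set gave an age call. With the replicate block within each age, the difference of injury effects had 1 call, Nrp1, and the block changed no other injury call of a member. The replicate number was also used as a block over all arrays, a pairing across ages that was not assumed. Deviations of same-numbered arrays did correlate across ages, by 0.26 on average in sham and 0.31 in SNI arrays. In that fit 10 members were called between the sham groups (1 higher, 9 lower, with 25.7% of all genes called) and 11 between the SNI groups (2 higher, 9 lower, 31% of all genes). The cause of these gains was not tested. Leaving out single arrays gave 0 to 1 calls after adult injury, 0 after neonatal injury and for the difference of effects, 5 to 7 between the sham groups and 7 to 8 between the SNI groups. Over all probe sets, 193 were called after adult injury, 297 with the block over all arrays, 291 with the block within each age and 106 with a filter at the 60th percentile; 1573 were called between the sham groups and 2468 with the block; 22 were called for the difference of effects and 6 at the 60th percentile. A fit of only the groups compared does not apply to the difference of effects. Probe sets at the dim end, 19 of the 44 members, limit what can be seen.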
